A study of Mus musculus with 21 samples.

Results

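The genes described here are 8 genes of antigen presentation by MHC class II, taken out of the 49510 genes of the deposited count table by their symbols: H2-Aa, H2-Ab1 and H2-Eb1, Cd74, H2-DMa, H2-DMb1, H2-Ob and Ciita. They were read in all 21 libraries, and all 8 passed the filter on low counts. The set was chosen by a result in these same libraries, the low level of H2-Aa in heart regulatory T cells and its high level in those of the lymph node, so the levels of the 8 genes are given as a description and no test of them is offered as support.

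The libraries are RNA-seq of T cells from Foxp3-GFP mice, in which green fluorescent protein reports Foxp3, the transcription factor that defines regulatory T cells (Tregs). All mice were 8 weeks old and were sampled 7 days after myocardial infarction, so the groups share the injury, the reporter and the age, and libraries of uninjured mice were not analysed here. Tregs were taken from 4 sites: injured heart, spleen, the heart-draining mediastinal node (MLN) and a lymph node elsewhere, called non-draining (NDLN). Conventional T cells (Tconvs), the cells without Foxp3, came from heart, spleen and NDLN. Each of these 7 groups has 3 libraries, made from cells that were sorted magnetically and then by flow cytometry, with a library kit made for low RNA input. Whether replicates came from separate animals or from pools is not stated, so spread and p-values describe these libraries and may be partly technical.

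MHC class II molecules are pairs of an alpha and a beta chain that show peptides from endosomes to CD4 T cells. New pairs are held by the invariant chain (Cd74), which is cut away in the endosome until only a short piece fills the groove. H2-DM exchanges that piece for other peptides, H2-O restrains H2-DM, and Ciita is the coactivator that switches the whole set on, acting through factors bound to the X and Y boxes of the promoters. B cells, dendritic cells and macrophages are the main class II cells, and mouse T cells are generally held to make little class II, so transcripts of the pathway in sorted mouse T cells are read here beside transcripts of those other cell types. In bulk RNA, fewer cells with a transcript and less of it per cell cannot be told apart.

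The X and Y boxes are shown because H2-Aa and H2-Eb1, nearly absent in heart Tregs, carry them at like distances from their start. Promoter windows from 250 bases before to 50 after the start were taken from RefSeq on GRCm38.p6 and searched on both strands for an X box, spelled CTNGNAAC, and a Y box, spelled GATTGG. The spelling was chosen with these promoters in view. The X box letters alone stood in 13.2% of all 32851 windows and the Y box letters in 16.1%; an X box followed on the same strand by a Y box after 10 to 30 bases stood in 34 windows, 0.103% of all. Of 5 genes of the set with a window, 4 had the pair, H2-Aa, H2-Eb1, H2-Ob and H2-DMb1, and H2-DMa did not. The X box began 84 to 97 and the Y box 49 to 62 bases before the start, with 24 to 27 bases between them. The stretches below run 5′ to 3′ on the strand of the gene, with both boxes in capitals.
H2-Aa, chr17:34287847-34287927, minus strand: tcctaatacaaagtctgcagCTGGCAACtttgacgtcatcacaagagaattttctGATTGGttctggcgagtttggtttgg
H2-Eb1, chr17:34305753-34305832, plus strand: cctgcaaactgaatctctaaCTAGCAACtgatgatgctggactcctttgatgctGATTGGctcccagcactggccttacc
H2-Ob, chr17:34238795-34238872, plus strand: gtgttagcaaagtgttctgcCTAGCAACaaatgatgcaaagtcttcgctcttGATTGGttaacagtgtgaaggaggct

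A match of letters is not evidence of binding. The genes that share the pair of boxes did not share a pattern across the libraries: H2-Aa and H2-Eb1 were nearly absent in heart Tregs and NDLN Tconvs, whereas H2-Ob was present in every library, as given below.

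Each library held 14515387 to 28323649 counts, of which 991 to 73252 fell on the 8 genes. Levels are counts scaled to library size by TMM, in CPM, given per library in the order of replicates 1, 2 and 3 and then as mean ± SD with n = 3. Foxp3 stood at 39.5 to 247 CPM in the 12 Treg libraries and at 0 to 0.164 CPM in the 9 Tconv libraries, and Cd3e, a subunit of the T cell receptor complex, at 50.2 to 431 CPM in all 21. In 5 libraries (MLN Treg 1 and 2, heart Treg 1, heart Tconv 1 and 2) mitochondrial ribosomal RNA took 0.0567 to 0.102% of counts, against 0.954 to 12.3% in the other 16, so all 5 are among the 9 heart and MLN libraries and none is among the 12 of spleen and NDLN. That split runs partly along the comparisons of heart or MLN with spleen or NDLN, and partly across heart Treg against heart Tconv. Ikzf2, the Treg transcription factor Helios, rose in Tregs at all 3 sites with both cell types (295.5 to 2029 CPM in Tregs and 27.3 to 105 in Tconvs), with an adjusted p of at most 0.00095 by edgeR, and the heart calls of Foxp3 and Ikzf2 were lost with either set of mitochondrial RNA alone. In heart against NDLN Tconvs Cd3e rose (log2 fold change 1.60, adjusted p = 0.039 by edgeR) and Cd3d, another subunit, fell (-1.29, adjusted p = 0.023); the first call was lost without NDLN Tconv 2 or 3 or any heart Tconv library, where the adjusted p over alternatives reached 0.17, and the second without NDLN Tconv 3 or heart Tconv 1 or 2, where it reached 0.31. Both the Cd3e and the Cd3d call were also lost with the libraries of high mitochondrial RNA alone. A gene was called where edgeR's quasi-likelihood test over 14996 genes gave an adjusted p under 0.05.

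H2-Aa encodes the alpha chain of I-A, the class II molecule that all common mouse strains make (ENSMUSG00000036594, protein coding, GRCm38 chromosome 17, 34282744 to 34287823, minus strand). It was high in spleen and NDLN Tregs, low in MLN Tregs and nearly absent in heart Tregs. Spleen Tregs had 179, 367 and 245 CPM (264 ± 95.2), and NDLN Tregs 189, 126 and 96.2 (137 ± 47.3). MLN Tregs had 7.69, 7.18 and 3.22 CPM (6.03 ± 2.45). In heart Tregs 3 counts were seen in all, every one of them in replicate 2 (0, 0.118 and 0 CPM). No heart Treg library reached the level of any lymphoid Treg library. With the counts of the 3 libraries pooled, heart Tregs were lower than spleen Tregs by a ratio of 6804 (95% counting interval 2328 to 32998), than NDLN Tregs by 3349.9 (1146 to 16247) and than MLN Tregs by 150.2 (51.0 to 732). These intervals cover counting error alone and not the spread between libraries. MLN Tregs stood 22.7-fold below NDLN Tregs, with no overlap between their libraries.

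**Figure D1:**
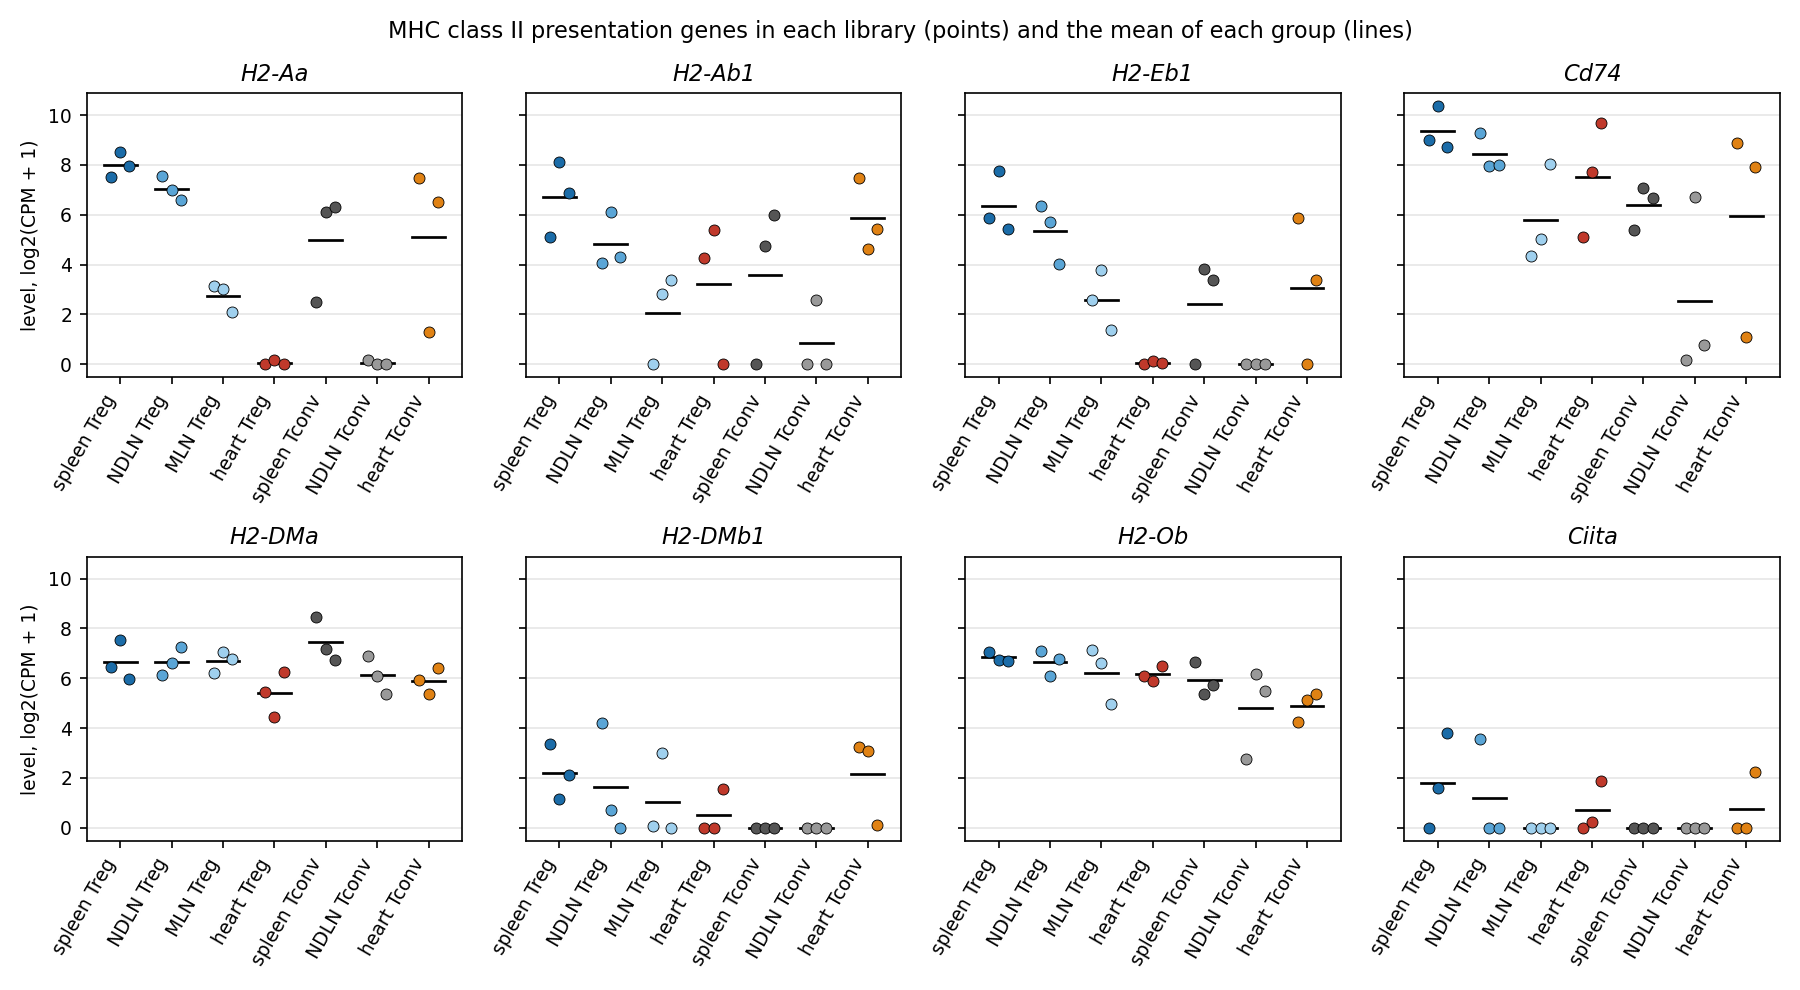
Level of each of the 8 genes, as log2(CPM + 1) on the vertical axis, in the 7 groups on the horizontal axis; each point is a library and each line the mean of the 3 points. The 3 heart Treg points of H2-Aa and H2-Eb1 lie at or near 0 while those of Cd74 reach 814 CPM, and H2-Ob and H2-DMa are above 0 in all 21 libraries.

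In Tconvs the libraries of a group differed widely in H2-Aa. Heart Tconvs had 177, 1.47 and 90.3 CPM (89.6 ± 87.8) and spleen Tconvs 4.67, 68.4 and 77.3 (50.1 ± 39.6), while NDLN Tconvs had 2 counts in all, both in replicate 1. Heart Tregs were lower than heart Tconvs by a ratio of pooled counts of 2157 (738 to 10464), and NDLN Tregs higher than NDLN Tconvs by 3550.2 (982 to 29320.0). The smallest of the heart Tconv values, 1.47 CPM, rests on 36 counts and was still above every heart Treg library. Spleen Tregs were 5.26-fold above spleen Tconvs without overlap. From highest to lowest mean, the order was spleen Treg, NDLN Treg, heart Tconv, spleen Tconv, MLN Treg, heart Treg and NDLN Tconv. The means of NDLN Treg and heart Tconv, of heart Tconv and spleen Tconv, and of heart Treg and NDLN Tconv lay within their SD of each other.

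H2-Eb1 encodes the beta chain of I-E (ENSMUSG00000060586, protein coding, chromosome 17, 34305867 to 34316674, plus strand). Its pattern was that of H2-Aa at a lower level. Spleen Tregs had 57.4, 215 and 41.5 CPM, NDLN Tregs 79.5, 51.2 and 15.3, and MLN Tregs 5.03, 12.8 and 1.59. Heart Tregs had 3 counts in all (0, 0.0789 and 0.0379 CPM), with every library below every lymphoid Treg library. The ratio of pooled counts was 2842 (972 to 13785) to spleen Tregs, 1152 (394 to 5588) to NDLN Tregs and 154 (52.3 to 749.7) to MLN Tregs, lower in heart Tregs each time. Heart Tconvs had 56.7, 0 and 9.32 CPM and spleen Tconvs 0, 13 and 9.44; NDLN Tconvs had 0 counts in all 3 libraries. With the group mean set against a limit of 3 counts over the NDLN Tconv group, NDLN Tregs were 854-fold above NDLN Tconvs. Heart Tconvs were 386-fold above them by the same limit. That limit covers counting error alone and not the spread between libraries. Of the 1476 heart Tconv counts 1262 were in replicate 1, and replicate 2 was at 0 as in NDLN Tconvs. Heart Tregs and heart Tconvs overlapped, since replicate 2 of the Tconvs was at 0. H2-Ea, which would give the alpha chain of I-E, is annotated as a polymorphic pseudogene and was left out by the filter on low counts.

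H2-Ab1 encodes the beta chain that pairs with the H2-Aa product (ENSMUSG00000073421, protein coding, chromosome 17, 34257689 to 34269419, plus strand). Unlike its partner, it was not absent from heart Tregs, where it had 18.4, 40.9 and 0 CPM (19.8 ± 20.5, 1456 counts in all). Spleen Tregs had 33.9, 276 and 117 CPM, NDLN Tregs 15.6, 68.1 and 18.9, and MLN Tregs 0, 6.12 and 9.47. Among Tconvs the values were 0, 25.8 and 63.3 in spleen, 0, 4.88 and 0 in NDLN and 175, 24.0 and 42.6 in heart. Heart Tregs overlapped with each of the other groups of Tregs and with heart Tconvs. Every neighbouring pair of groups in the order of H2-Ab1 means lay within its SD. I-A is built from both chains; heart Treg 1 and 2 held the beta chain transcript with 0 and 3 counts of the alpha chain.

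Cd74, the invariant chain (ENSMUSG00000024610, protein coding, chromosome 18, 60803848 to 60812652, plus strand), had the highest mean per kilobase of exon of the 8 genes in 5 of the 7 groups and departed from the chain genes in heart Tregs. Its levels were 511, 1303 and 422 CPM in spleen Tregs, 628, 249 and 254 in NDLN, 19.2, 31.1 and 258 in MLN and 33.7, 210.1 and 814 in heart Tregs. Tconvs had 40.9, 132 and 102 CPM in spleen, 0.117, 103 and 0.690 in NDLN and 468, 1.11 and 242 in heart. Heart Tregs overlapped with NDLN Tregs (353 ± 409 against 377 ± 217), with spleen Tregs and with heart Tconvs (237 ± 234), so the gap seen in H2-Aa was not seen in Cd74. Heart Treg 3 had the most Cd74 of the 3 and the least of the chain genes: H2-Aa, H2-Ab1 and H2-Eb1 together came to 0.0379 CPM there, against 18.4 and 41.1 CPM in replicates 1 and 2. Cd74 made up 82.7% of the sum over the 8 genes in that library, 41.9 to 53.1% in spleen Tregs and 37.9 to 54.8% in NDLN Tregs.

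**Figure D2:**
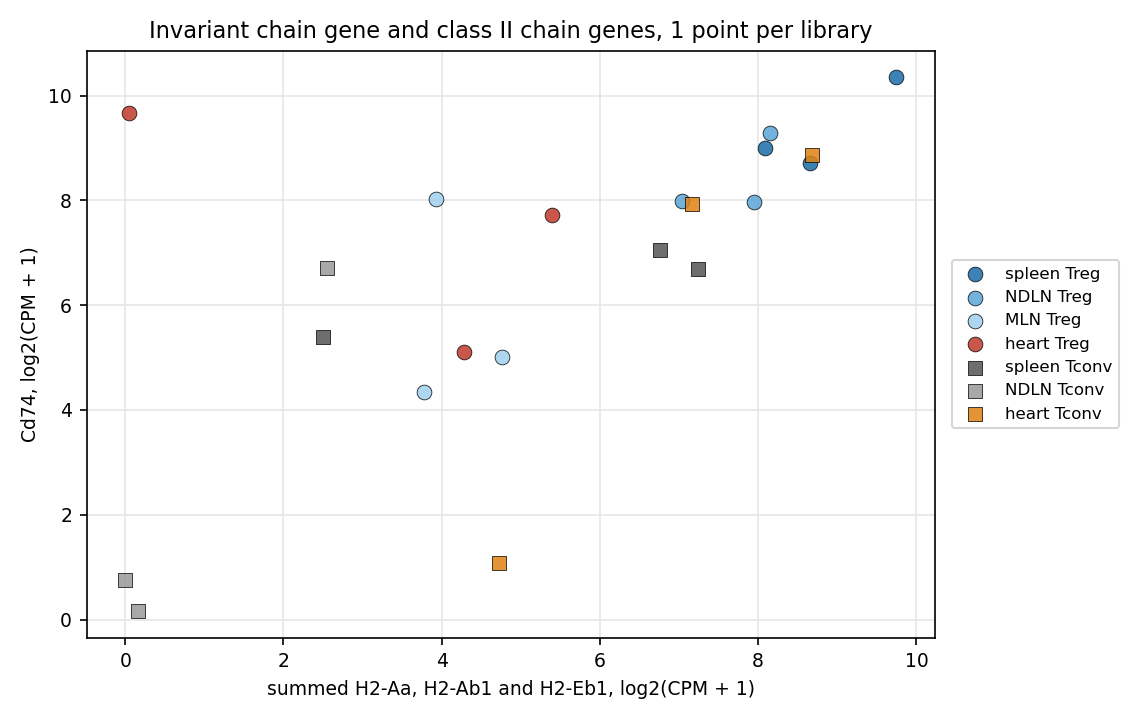
Cd74 (vertical axis) against the sum of H2-Aa, H2-Ab1 and H2-Eb1 (horizontal axis), both as log2(CPM + 1), with a point per library, circles for Tregs and squares for Tconvs. Heart Treg 3 stands alone at the upper left, with 814 CPM of Cd74 and 0.0379 CPM of the chain genes, and heart Tconv 2 lies low, with 1.11 CPM of Cd74 and 25.4 CPM of the chain genes.

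Among genes of other cell types, Fcer1g, the Fc receptor gamma chain of myeloid and mast cells, stood at 270.5 CPM in heart Treg 3 and Itgam, an integrin of myeloid cells, at 19.8. In heart Treg 1 and 2 Fcer1g was at 0 and Itgam at 0.0880 and 0 CPM. The macrophage and monocyte list summed to 42.0, 0.118 and 290.4 CPM in the 3 heart Treg libraries, with 9 of its 15 genes at 0 in all 3, among them Csf1r, Adgre1, C1qa and Mertk. Fcer1g and Itgam made up nearly all of the sum in heart Treg 3, with the rest of the list at or near 0 there. The part of these genes in the level of Cd74 was not tested.

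The peptide editors were a mixed group. H2-DMa, the alpha chain of H2-DM (ENSMUSG00000037649, chromosome 17, 34119541 to 34139101, plus strand), was found in all 21 libraries, from 20.6 CPM in heart Treg 2 to 348 in spleen Tconv 1. Its means were 110.0 ± 63.4 in spleen, 105 ± 41.8 in NDLN, 104 ± 29.2 in MLN and 46.6 ± 27.9 in heart Tregs, and 199 ± 130.2 in spleen, 75.2 ± 39.4 in NDLN and 61.3 ± 21.6 in heart Tconvs. Heart had the lowest mean among Tregs and among Tconvs, but only heart and spleen Tconvs (at most 83.5 against at least 106 CPM) did not overlap. H2-DMa shares 360 exon bases, 10.4% of its exon length, with Brd2 on the opposite strand, and the strand setting of the counting is not given in the sources used here, so reads there could be assigned to either.

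H2-DMb1, a beta chain of H2-DM (ENSMUSG00000079547, chromosome 17, 34153072 to 34160230, plus strand), was scarce where its partner was not. It had 9.33, 1.21 and 3.38 CPM in spleen Tregs, 17.5, 0.638 and 0 in those of NDLN and 0.0409, 7.03 and 0 in those of MLN. Heart Tregs had 0, 0 and 1.97 CPM and heart Tconvs 8.54, 7.54 and 0.0871, while spleen and NDLN Tconvs had 0 counts in all 6 libraries. Set against a limit of 3 counts over the spleen Tconv group, spleen Tregs were 102-fold above spleen Tconvs. That limit leaves out the spread between libraries. H2-DMb2, a near-identical copy not in the set, had 25.0, 62.8 and 17.7 CPM in spleen Tregs and 0 counts in all 3 heart Treg libraries; how reads that match both copies were counted is not given, so the split between them is uncertain.

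H2-Ob, the beta chain of H2-O (ENSMUSG00000041538, chromosome 17, 34238903 to 34254414, plus strand), was found in all 21 libraries and was higher in heart Tregs than in heart Tconvs, the opposite of H2-Aa. Heart Tregs had 67.6, 58.3 and 89.9 CPM (71.9 ± 16.2) and heart Tconvs 17.9, 33.4 and 40.1 (30.5 ± 11.4), a 2.36-fold difference without overlap. Spleen Tregs (132, 106 and 103) lay 1.77-fold above spleen Tconvs (100.4, 40.2 and 51.4), also without overlap. NDLN Tregs (136, 67.2 and 109.6) lay 2.57-fold above NDLN Tconvs (5.80, 71.9 and 44.3), with overlap, and MLN Tregs had 138, 95.3 and 30.2 CPM. All 4 Treg means were above all 3 Tconv means, yet each neighbouring pair in the order lay within its SD. Its partner gene H2-Oa, not in the set, did not follow: heart Tregs had 9.98, 0.0394 and 0 CPM and heart Tconvs 2.56, 3.15 and 21.5, while spleen Tregs had 58.3, 44.8 and 16.1.

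Ciita (ENSMUSG00000022504, chromosome 16, 10480059 to 10528418, plus strand) was at 0 in most libraries. It was above 0 in 6 of the 21 libraries: spleen Treg 2 and 3 (1.98 and 12.8 CPM), NDLN Treg 1 (10.7), heart Treg 2 and 3 (0.158 and 2.61) and heart Tconv 3 (3.70). It was at 0 in every MLN Treg, spleen Tconv and NDLN Tconv library, and in heart Tconv 1, which had 177 CPM of H2-Aa. Ciita shares 329 exon bases, 3.45% of its exons, with Dexi on the opposite strand. Libraries of a group ran from 0 to 308 counts in spleen Tregs and from 0 to 225 in NDLN Tregs. With this spread a difference in Ciita between groups could not be made out, and edgeR called none.

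Per kilobase of exon, the scale on which genes can be set side by side, spleen Tregs had a mean of 444 CPM per kb of Cd74, 69.4 of H2-Aa, 55.4 of H2-Ab1, 53.8 of H2-Eb1, 31.9 of H2-DMa, 21.1 of H2-Ob, 2.76 of H2-DMb1 and 0.518 of Ciita. The means of the 3 chain genes were therefore alike there, but single libraries were less so. H2-Aa, H2-Ab1 and H2-Eb1 had 47.2, 13.2 and 29.5 CPM per kb in spleen Treg 1 and 64.5, 45.5 and 21.4 in spleen Treg 3. In NDLN Tregs their means were 36.0, 13.3 and 25.0. In heart Tconvs the same scale gave 23.6 for H2-Aa, 31.4 for H2-Ab1 and 11.3 for H2-Eb1. In heart Tregs it gave 7.70 for H2-Ab1 against 0.0104 for H2-Aa and 0.0200 for H2-Eb1, with Cd74 at 210.0, H2-DMa at 13.5 and H2-Ob at 13.4. The chain genes thus stood far apart in heart Tregs, although 1 of those libraries was at 0 for H2-Ab1 too.

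The counts of the set against all genes tested were as follows, and because H2-Aa entered the choice of the set nothing is read from them. Heart Tregs against heart Tconvs gave 1 of 8 called, H2-Aa, lower (0.0667% of all genes were called), and 2 of 8 without overlap between libraries, H2-Aa lower and H2-Ob higher (12.2% of all genes). NDLN Tregs against NDLN Tconvs gave H2-Aa called, higher (0.3% of all genes), and H2-Aa, H2-Ab1, H2-Eb1 and Cd74 without overlap (12.1%). Spleen Tregs against spleen Tconvs gave 0 called by edgeR (0.06%), 2 with an unadjusted p under 0.05 and 1 called by DESeq2 (6.35%), with 5 higher without overlap, H2-Aa, H2-Eb1, H2-DMb1, H2-Ob and Cd74 (12.8%). DESeq2 called 2 lower in heart Tregs against heart Tconvs (6.94% of all genes) and 4 higher in NDLN Tregs against NDLN Tconvs (12.1%). The median difference over the 8 genes in mean log2(CPM + 1) was -1.07 for heart, 2.60 for spleen and 2.91 for NDLN, beside -0.17, 0.05 and 0.14 over all genes.

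Between Treg sites, H2-Aa was called lower in heart than in spleen (0.147% of all genes called) and than in NDLN (0.533%). H2-Aa, H2-Eb1 and H2-Ob had no overlap between heart and spleen (15.5% of all genes), H2-Aa and H2-Eb1 none between heart and NDLN (19.6%) or heart and MLN (12.4%), and H2-Aa, H2-Ab1 and H2-Eb1 none between MLN and NDLN (16.6%). Heart against MLN gave 0 of 8 called by edgeR (0.0667%), 2 with an unadjusted p under 0.05, and 1 higher and 2 lower by DESeq2 (7.86%). MLN against NDLN gave 0 by edgeR (0.00667%), 1 with an unadjusted p under 0.05 and 2 lower by DESeq2 (6.65%). DESeq2 called 2 lower in heart against spleen (9.56%) and 2 lower in heart against NDLN (13.0%). Median differences over the 8 were -1.77 for heart against spleen, -1.20 for heart against NDLN, -0.28 for heart against MLN and -1.91 for MLN against NDLN, and those over all genes -0.12, 0.00, -0.16 and 0.12. The comparisons with heart Tregs share those 3 libraries.

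Between Tconv sites, H2-Aa and H2-Eb1 were called higher in heart than in NDLN (2.88% of all genes), where H2-Aa, H2-Ab1 and H2-DMb1 did not overlap (24.7%) and DESeq2 called 5 higher (19.5%). Heart against spleen gave 0 by edgeR (0.473%), 2 with an unadjusted p under 0.05 and 2 higher by DESeq2 (10.4%), with H2-DMb1 higher and H2-DMa and H2-Ob lower without overlap (24.3%). Median differences over the 8 were 2.61 and 0.40, and over all genes 0.39 and 0.18. Where the contrast of heart Tregs with heart Tconvs was set against the like contrast in NDLN or spleen, H2-Aa was called in each, and in each 0.0133% of all genes were called by edgeR; DESeq2 called 3 of the 8 in each, where it called 9.72% and 5.97% of all genes. The call of H2-Aa between heart Tregs and heart Tconvs (fitted log2 difference -10.94) was lost without heart Treg 3 (-10.39) and with either set of mitochondrial RNA taken alone. That of H2-Eb1 between heart and NDLN Tconvs (11.94) was lost without any single NDLN Tconv library (11.93 to 11.97) and without heart Tconv 1 (9.70). It was also lost with the libraries of high mitochondrial RNA alone, which leave heart Tconv 3 as the only heart Tconv library.

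Within the 5 libraries of low mitochondrial ribosomal RNA, H2-Aa stood at 0 in heart Treg 1, at 177 and 1.47 CPM in heart Tconv 1 and 2 and at 7.69 and 7.18 in MLN Treg 1 and 2. Within the other 16 it stood at 0.118 and 0 in heart Treg 2 and 3, at 90.3 in heart Tconv 3, at 3.22 in MLN Treg 3 and at 96.2 to 367 in spleen and NDLN Tregs. Heart Tregs were thus below MLN Tregs and below heart Tconvs in each set. The sum over the 8 genes was higher in heart than in MLN Tregs over all libraries (493 ± 434 against 315 ± 86.2 CPM) and lower in the low set, where it was 163 in heart Treg 1 and 243 and 291 in MLN Treg 1 and 2. The higher sum in heart Tregs rested on heart Treg 3, without which the log2 ratio of the sums went from 0.64 to -0.35.

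Across the 21 libraries the members differed in how closely they moved together. Of 28 pairs, Spearman's rho ran from -0.19 to 0.92 with a median of 0.34; libraries differ in depth and in the cells they hold, so these are descriptions of likeness alone. H2-Aa and H2-Eb1 were most alike (0.92), and H2-Ab1 was most like H2-Aa (0.70). Cd74 and H2-DMb1 were most like H2-Eb1 (0.72 and 0.58) and Ciita most like Cd74 (0.57). H2-Ob (0.40 with H2-Eb1) and H2-DMa (0.31 with H2-Aa) were least like the others.

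Among the 10 genes outside the set whose pattern was closest to its mean log2(CPM + 1) were Ly86 (0.86), Cd79a (0.86), Ebf1 (0.85), Napsa (0.81), Ly6d (0.81), Bank1 (0.79), Fcrla (0.77), H2-DMb2 (0.77) and Rmi2 (0.77), by Spearman's rho over 21 libraries among 11710 genes. Pearson's r put 7 of the 10 in its own first 10. Cd79a encodes a signalling part of the B cell receptor, and Ebf1 a transcription factor that commits cells to the B lineage. Cd79a stood at 105, 254 and 84.2 CPM in spleen Tregs and 119, 90.3 and 72.4 in NDLN Tregs, against 2.46, 11.7 and 0.272 in MLN Tregs and 8.14, 0.0394 and 0.0379 in heart Tregs. Ms4a1, the gene of CD20, stood at 43.2 to 57.9 CPM in the 6 spleen and NDLN Treg libraries and at 0 in all 6 MLN and heart Treg libraries.

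The B cell list of 20 genes, summed without its immunoglobulin genes, came to 363, 684 and 619 CPM in spleen Tregs and 529, 379 and 532 in NDLN Tregs. It came to 43.1, 100.3 and 66.1 CPM in MLN Tregs and to 18.5, 0.118 and 25.1 in heart Tregs. At 0 in all libraries of a group were 0 of the 20 genes in spleen Tregs, 3 in NDLN, 9 in MLN and 12 in heart Tregs. Of 17 tested, edgeR called 0 between heart and spleen Tregs (0.147% of all genes), while 13 had an unadjusted p under 0.05. DESeq2 called 11 lower in heart, where it called 9.56% of all genes. The median difference over the 17 was -3.24, beside -0.12 over all genes. By the sum without immunoglobulin genes, the Treg group means came in the same order as by H2-Aa. With those genes it was 2152, 12143 and 6584 CPM in spleen and 2369, 13298 and 12216 in NDLN Tregs, higher in NDLN. MLN Tregs then had 3601, 3222 and 1780 CPM and heart Tregs 1107, 2024 and 995. Heart Tconvs had 382, 222 and 401 with the immunoglobulin genes, below heart Tregs, the reverse of H2-Aa. Without those genes heart Tconvs had 105, 0 and 75.5 CPM, beside 18.5, 0.118 and 25.1 in heart Tregs. By that sum heart Tconv 1 and 3 were above every heart Treg library and heart Tconv 2 was below them. The part of B cells in the class II levels was not tested.

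Tconvs were also read beside a gene of plasmacytoid dendritic cells. Siglech, a receptor of plasmacytoid dendritic cells, stood at 43.9, 0 and 145.5 CPM in heart Tconvs, 0, 14.3 and 19.2 in spleen Tconvs and 0 in all NDLN Tconvs. The 4 Tconv libraries with Siglech were the 4 with 68.4 CPM or more of H2-Aa, and the 5 without it had at most 4.67. Klk1 and Cox6a2, which those cells also express, were picked for the same pattern. They stood at 25.2, 0 and 73.3 and at 10.1, 0 and 16.5 CPM in heart Tconvs, and at 0, 24.8 and 66.2 and at 0, 8.25 and 35.5 in spleen Tconvs, but Klk1 also at 9.55 in heart Treg 2 and Cox6a2 at 7.51 in NDLN Tconv 2, libraries with 0.118 and 0 CPM of H2-Aa. In the 12 Treg libraries Siglech was at most 1.29 CPM. Other genes of the plasmacytoid list were uneven. Among Tconvs, Tcf4 and Plac8 were higher in each library with Siglech than in any without it. Tcf4 had 1.66, 0 and 31.0 CPM in heart and 1.51, 2.00 and 13.8 in spleen Tconvs. Plac8 had 244, 52.6 and 193 CPM in heart and 80.8, 297 and 137 in spleen Tconvs. In NDLN Tregs, where Siglech was at 0, Tcf4 reached 15.6 CPM and Plac8 271. Ccr9, Runx2, Pacsin1, Bst2 and Irf7 did not follow Siglech. Ccr9, a homing receptor, had 97.8, 122 and 47.7 CPM in heart Tregs and 12.9, 15.5 and 0.305 in heart Tconvs. Runx2 had 45.9 CPM in heart Tconv 2, where Siglech was at 0, and Pacsin1 40.2 in NDLN Tconv 1 and 0.479 in heart Tconv 3. The sum over the 10 genes was 705, 266 and 769 CPM in heart Tconvs and 376, 674 and 439 in heart Tregs, so it did not separate the libraries by H2-Aa.

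The dendritic cell list, which holds Siglech, summed to 57.5, 9.58 and 207 CPM in heart Tconvs and to 17.5, 19.4 and 24.7 in spleen Tconvs. It came to 0, 0 and 2.42 CPM in NDLN Tconvs and 25.4, 0.868 and 1.29 in heart Tregs. Its genes were uneven: Xcr1, a receptor of cross-presenting dendritic cells, had 8.45, 9.54 and 14.3 CPM in heart Tconvs and 17.4 in spleen Tconv 1, so it was present in heart Tconv 2 and spleen Tconv 1, where H2-Aa was low. Cd209a (31.3) and Clec9a (16.0) were found in heart Tconv 3, Flt3 above 1 CPM in heart Tconv 1 alone and Itgax at 0 in all 21 libraries. B cell genes without immunoglobulins came to 105, 0 and 75.5 CPM in heart Tconvs, 93.9 and 44.7 in spleen Tconv 2 and 3, and 9.42, 24.6 and 2.93 in NDLN Tconvs. The list of plasmacytoid genes was added after the levels of Siglech were seen, and the part of these lists in the class II levels was not tested.

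Fibroblast genes were high in 5 of the 6 heart libraries. The list of 7 summed to 84.7, 425 and 381 CPM in heart Tregs and to 1.12, 149.6 and 103 in heart Tconvs, and to at most 5.47 in the other 15 libraries. Of 6 tested, edgeR called 1 in each comparison of a heart group with the same cells elsewhere (0.0667 to 2.88% of all genes). It was Dcn, the matrix proteoglycan decorin, which rose in heart in all 5, and 5 of 6 had an unadjusted p under 0.05 in each. Dcn stood at 14.4, 322 and 168 CPM in heart Tregs and 1.12, 58.2 and 16.3 in heart Tconvs, against at most 0.232 elsewhere (adjusted p 0.022 to 0.048 by edgeR). The calls were lost without any single library of the lymphoid group compared and without heart Treg 2 or 3 or heart Tconv 2, and that between heart and spleen Tconvs also without heart Tconv 1; the adjusted p over alternatives reached 0.63. The Dcn calls between Tconvs and that against MLN Tregs were also lost with the libraries of high mitochondrial RNA alone. The median difference over the 6 was 3.80, 4.10 and 3.86 for heart against spleen, NDLN and MLN Tregs, beside -0.12, 0.00 and -0.16 over all genes. It was 2.58 and 2.73 for heart against spleen and NDLN Tconvs, beside 0.18 and 0.39. Heart Tconv 1, with the most H2-Aa of the heart libraries, had the least of the fibroblast genes. Pdgfra was at 0 in all heart Tregs, and the part of fibroblasts in the differences between heart and the other sites was not tested.

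**Figure D3:**
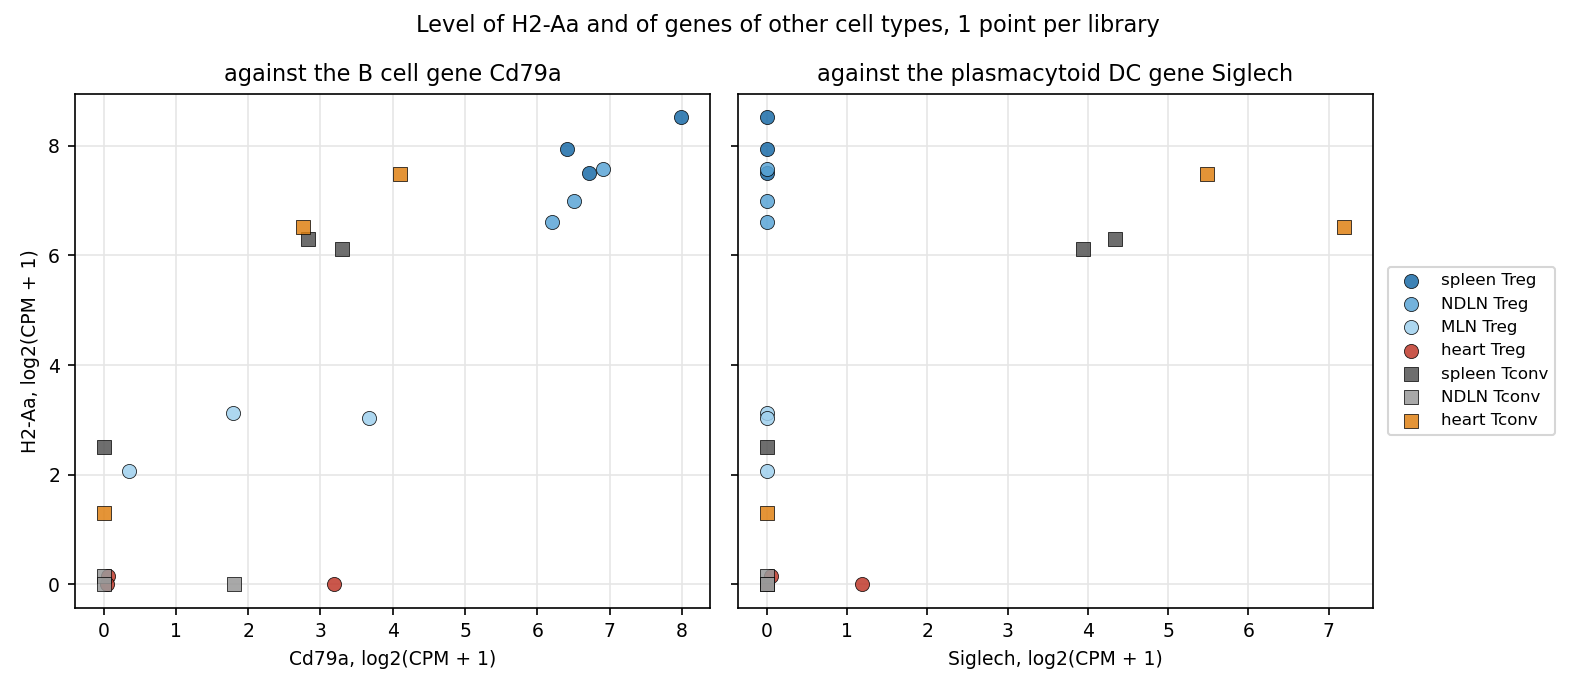
H2-Aa (vertical axes) against the B cell gene Cd79a (left) and the plasmacytoid dendritic cell gene Siglech (right), all as log2(CPM + 1), with a point per library, circles for Tregs and squares for Tconvs. Spleen and NDLN Tregs combine high H2-Aa with Cd79a of 72.4 to 254 CPM and Siglech at 0, and the 4 Tconv squares with high H2-Aa have Siglech of 14.3 to 145.5 CPM.

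Of 10 other class II genes 7 were tested, and edgeR called 1 gene in 1 pair of groups, Ctss, the protease cathepsin S that trims the invariant chain. It fell in heart against NDLN Tconvs, with 307, 295 and 450.3 CPM against 705, 859 and 874 (log2 fold change -1.21, SE 0.32, adjusted p = 0.045 by edgeR). That call was lost in 7 of 11 alternatives, where the adjusted p reached 0.53, among them without any single NDLN Tconv library and without heart Tconv 1 or 2. In Tregs Ctss had 334 to 720.0 CPM in heart, against 722 to 1097 in NDLN (adjusted p = 0.32 by edgeR). H2-DMb2, the second beta chain of H2-DM, was at 41.7, 3.25 and 17.6 CPM in NDLN Tregs, with 0 counts in heart Tregs and a fitted adjusted p of 0.21 by edgeR. Lgmn, an endosomal protease, had 29.8, 61.0 and 64.4 CPM in heart Tregs and 2.25, 1.02 and 18.6 in heart Tconvs, without overlap (log2 fold change 2.82, SE 1.17, adjusted p = 0.60 by edgeR). March1, a ligase that removes class II from the surface, was above 0 in 3 libraries, spleen Treg 2 and 3 (10.3 and 2.79 CPM) and NDLN Treg 3 (24.0).

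Of the 12 transcription factors of the class II promoters, Irf1, an interferon-induced factor that acts on Ciita, rose in heart in the comparisons with NDLN, the opposite direction to H2-Aa in Tregs. It stood at 455, 305 and 639 CPM in heart Tregs and 30.8, 38.6 and 48.3 in NDLN Tregs (log2 fold change 3.57, SE 0.56, adjusted p = 0.0060 by edgeR), a call kept in all 11 alternatives, where the adjusted p was at most 0.049. In heart Tconvs it stood at 355, 469.5 and 262 CPM, against 37.5, 51.0 and 26.0 in NDLN Tconvs (log2 fold change 3.25, SE 0.55, adjusted p = 0.0051 by edgeR). That call was lost in 1 of 11 alternatives, the libraries of high mitochondrial RNA alone, where heart Tconv 3 was the only heart Tconv library. MLN Tregs had a highest value of 334 CPM, in replicate 1, and spleen Tregs 103, 70.3 and 58.8; heart against spleen Tregs gave an adjusted p of 0.061. The other 11 factors were not called in any comparison by edgeR, while DESeq2 called 1 lower in heart than in NDLN Tregs (13.0% of all genes). Of all 12, DESeq2 called 3 higher and 1 lower in heart than in NDLN Tconvs (19.5% of all genes). Rfx5, a subunit of the complex on the X box, was at 0 in all heart Treg libraries and at 1.44, 6.47 and 1.05 CPM in heart Tconvs, without overlap (adjusted p = 0.60 by edgeR), and was at most 5.33 CPM in lymphoid Tregs. Nfyb, a subunit of the Y box factor, had 0.0440, 51.8 and 16.7 CPM in heart Tregs against 110.1, 132 and 74.8 in NDLN Tregs, without overlap (adjusted p = 0.32 by edgeR).

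MHC class I, the other presentation pathway, which nearly all cells use, was set beside class II. Of its 17 genes H2-D1, a class I heavy chain, was the only gene called. It rose in heart Tregs against NDLN Tregs, with 6601, 3144 and 3172 CPM against 1211, 663 and 848 (log2 fold change 2.25, SE 0.45, adjusted p = 0.025 by edgeR). In heart Tconvs it stood at 4447, 6123 and 4740.4 CPM, higher than in spleen Tconvs (log2 fold change 2.15, SE 0.45, adjusted p = 0.033 by edgeR) and than in NDLN Tconvs (2.24, SE 0.45, adjusted p = 0.011). MLN Treg 1 and 2, of the low set of mitochondrial RNA, had 5710.3 and 4913 CPM and replicate 3, of the other set, 1467. Heart Treg 1 and heart Tconv 1 and 2 are of the low set as well, and the calls were lost within the other set in all 3 comparisons and without single libraries in some: in heart against NDLN Tregs without NDLN Treg 2 or 3 or heart Treg 1, where the adjusted p over alternatives reached 0.15, in heart against NDLN Tconvs without heart Tconv 2, where it reached 0.071, and in heart against spleen Tconvs without any spleen library or heart Tconv 1 or 2, where it reached 0.20. H2-K1, another heavy chain, had 3865, 3645 and 3618 CPM in heart Tregs against 2146, 1454 and 1467 in NDLN Tregs, without overlap (adjusted p = 0.13 by edgeR). H2-D1 and its relatives are near-identical in parts, so reads could be split between them.

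**Figure D4:**
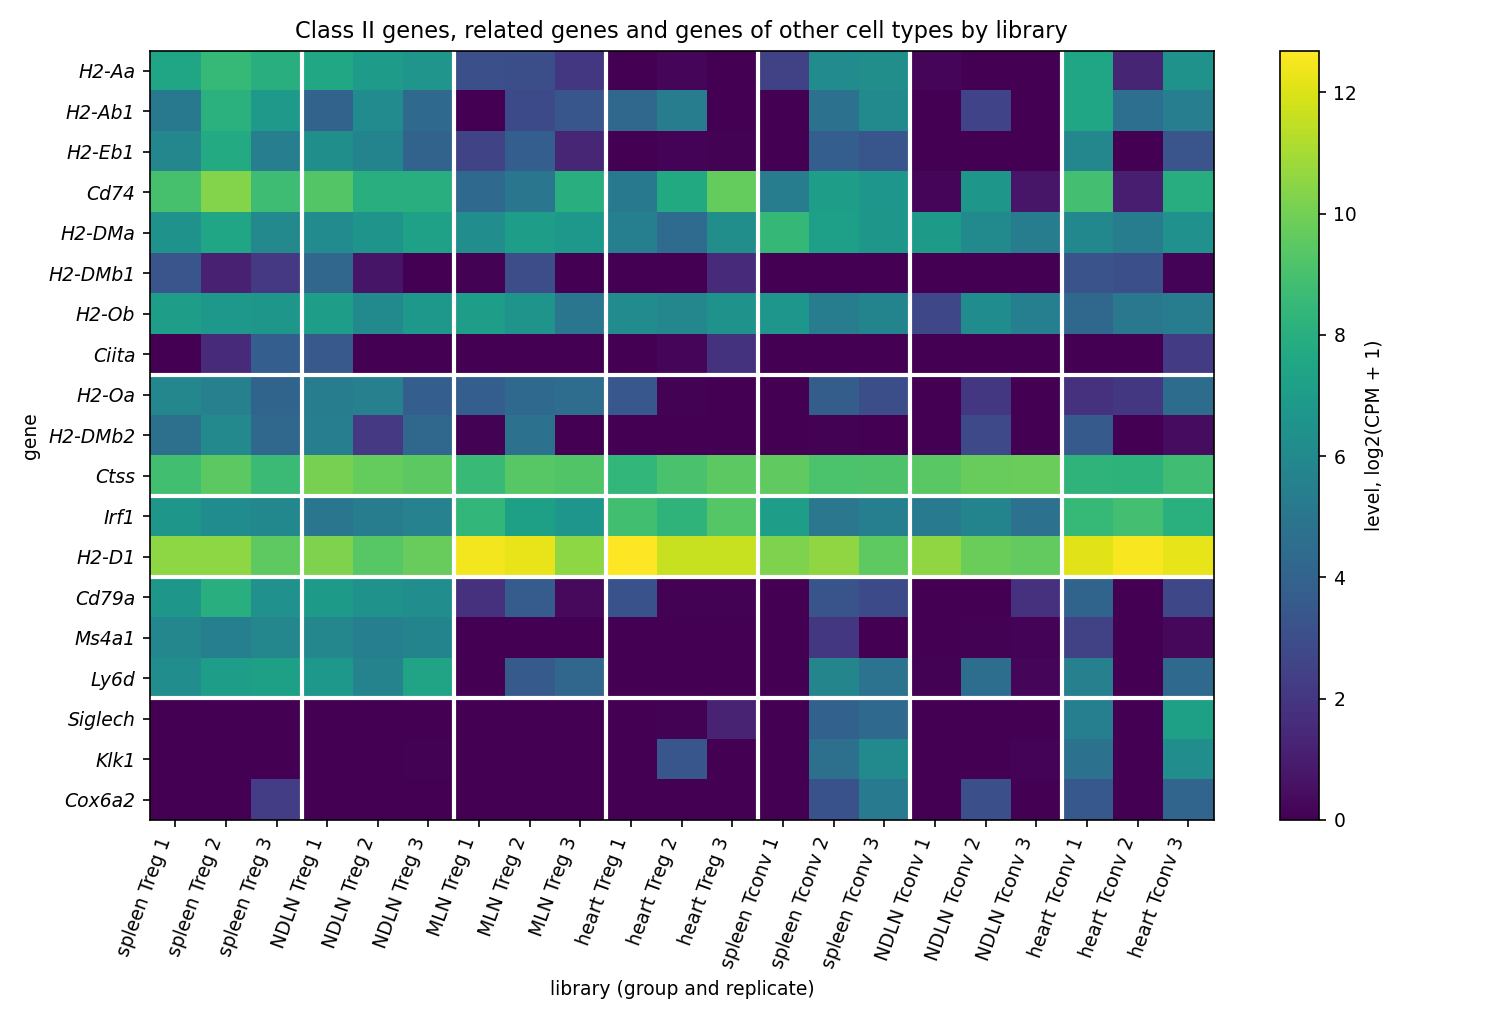
Levels as log2(CPM + 1), by colour, of 19 genes (rows) in the 21 libraries (columns, by group and replicate): the 8 genes of the set, then H2-Oa, H2-DMb2 and Ctss, then Irf1 and H2-D1, then 3 B cell genes and 3 genes of plasmacytoid dendritic cells. The rows of Irf1 and H2-D1 are bright in heart Tregs and in heart Tconvs alike. Those of H2-Aa and H2-Eb1 are dark in heart Tregs, while H2-Aa had 177, 1.47 and 90.3 CPM in heart Tconvs.

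Of 6 costimulatory genes of presenting cells edgeR called 0 in each comparison, and 0 or 1 had an unadjusted p under 0.05 in each pair of groups. In heart against NDLN Tregs 0 had an unadjusted p under 0.05 and DESeq2 called 1 lower (13.0% of all genes). In heart Tregs against heart Tconvs the numbers were 1 and 1 (6.94% of all genes by DESeq2). Cd40, the receptor through which T cells license presenting cells, was above 1 CPM in 3 libraries: spleen Treg 2 (6.09), NDLN Treg 2 (11.9) and heart Tconv 1 (7.28). Icosl, the ligand of ICOS, was at 0 in all heart Treg libraries and at 5.71, 0 and 2.13 CPM in heart Tconvs (adjusted p = 0.60 by edgeR), again with heart Tconv 2 at 0. Cd86, a ligand of CD28, was at 47.2, 43.9 and 49.7 CPM in heart Tregs and 35.2, 45.5 and 47.4 in heart Tconvs.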

How the data were processed

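The deposited file is a table of whole-number counts per gene for 49510 genes in 21 libraries, 7 groups of 3. Per the submitters' processing notes the authors used CASAVA 1.8.2, HISAT2 and HTSeq 0.6.0 with the mm10 genome; not given in the sources used here are the annotation, the strand setting and how multi-mapping reads were counted. Every count column was used (0 left aside). Symbols turned into dates were restored (26), and 49326 gene IDs matched GENCODE names.

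Genes were filtered with filterByExpr (minimum count 10, minimum total 15), leaving 14996, and scaled by TMM (factors 0.798 to 1.35). All 21 libraries entered 1 quasi-likelihood fit in edgeR 4.0.16 (R 4.3.3), with Benjamini-Hochberg adjustment over all genes and a threshold of 0.05. The code of the fit was run on simulated data with far less spread than these libraries, whose common dispersion was 2.19. That run does not measure power or error in these data. No 2 libraries of a group agreed within sampling noise (lowest chi-square per degree of freedom 179). Levels are TMM-scaled CPM, likeness and medians use log2(CPM + 1), groups with 0 counts were set to 3 counts over the group, and ratios to groups of 1 to 3 counts are of pooled counts over pooled scaled depth. Counting intervals are exact, at 95%, and cover counting error only.

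Named genes were all 8 of the set; from each related list, those called, and some of the 2 with the smallest p in each comparison, which the rule also names; and the 10 most alike in pattern, of which 1 is not reported here. Klk1, Cox6a2, Ccr9, Runx2, Pacsin1, Tcf4, Plac8, Bst2, Irf7, Xcr1, Cd209a, Clec9a, Itgam, Flt3 and Itgax, and Cd86 in heart, were chosen after their values were seen. The 8 genes and the lists were chosen with earlier results of these data known. Alternatives were RLE scaling, CPM without TMM, no filter, DESeq2 1.42.0, the replicate number as a block, the libraries of high or low mitochondrial ribosomal RNA alone (limit 0.5%), sums without Cd74 or over the chain genes, and leaving out each library.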

Additional observations from a re-analysis of the deposited data

Results flagged for a closer look

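H2-Aa stood out because its contrast of Tregs with Tconvs ran one way in heart and the other way in the lymphoid sites: Tregs had less of it than Tconvs in heart and more of it in NDLN and spleen. The fitted log2 difference between these contrasts was -22.52 for heart against NDLN and -13.34 for heart against spleen. Both sizes depend on the small prior count of the fit, because heart Tregs held 3 counts of H2-Aa and NDLN Tconvs 2. The call against NDLN was kept in all 17 alternatives, and that against spleen was lost in 6 of 17, among them without heart Treg 3 and without any single spleen Tconv library. H2-Aa was known to differ in this way when the set was chosen, and the part of B cells and plasmacytoid dendritic cells, whose genes are given above, was not tested.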

How the results depend on the processing

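The calls of H2-Aa in NDLN Tregs against NDLN Tconvs, heart against spleen Tregs, heart against NDLN Tregs and heart against NDLN Tconvs were kept in all 11 alternatives each. H2-Aa was known to differ in heart and node Tregs when the set was chosen, so these calls are a description and not support. Of the values of the 8 genes under an alternative 71 moved and 1009 did not, and of the list genes 64 calls were lost and 164 gained. In the order heart Tregs against Tconvs, spleen Tregs against Tconvs, NDLN Tregs against Tconvs, heart against spleen, NDLN and MLN Tregs, MLN against NDLN Tregs, heart against spleen and NDLN Tconvs, and the heart contrast against those of NDLN and spleen, edgeR called 10, 9, 45, 22, 80, 10, 1, 71, 432, 2 and 2 genes. Without the filter it called 105, 158, 339, 189, 351, 118, 193, 354, 785, 178 and 60, and DESeq2 called 981, 898, 1644, 1352, 1834, 1112, 941, 1470, 2706, 1375 and 844. DESeq2 called 239 higher and 742 lower in heart Tregs against heart Tconvs, where edgeR called 7 and 3.

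With the libraries of high mitochondrial ribosomal RNA alone, edgeR called 0 in heart Tregs against Tconvs (673 with an unadjusted p under 0.05), 14 in spleen, 13 in NDLN, 32 in heart against NDLN Tregs, 2 in MLN against NDLN Tregs, 1 in heart against spleen Tconvs, 19 in heart against NDLN Tconvs, and 1 and 0 in the contrasts of contrasts (767 unadjusted for the last). With the low set alone it called 0 in heart Tregs against Tconvs (821 unadjusted) and 0 in heart against MLN Tregs (911 unadjusted). A lone library there is assumed to vary like the others. RLE scaling gave 2 for heart against MLN Tregs and 1 for the contrast with NDLN, with splits of higher and lower of 1 and 1 where TMM gave 7 and 3 for heart against MLN Tregs, 8 and 2 against 7 and 3 for heart Tregs against Tconvs, and 49 and 20 against 48 and 32 for heart against NDLN Tregs.

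Whether the replicate numbers pair the samples is not stated in the labels. Same-numbered libraries correlated in their deviations at -0.06 to 0.18, and in no comparison were all pairs above 0.1. Such weak correlations cannot settle a pairing either way. In spleen each library was most like its own number (0.0725, 0.0909 and 0.0582), a hint from the data only. The replicate block gave 146 for heart against NDLN Tregs, 4 for heart against MLN Tregs, 4 for MLN against NDLN Tregs, 287 for heart against spleen Tconvs, and 1 and 1 in the contrasts of contrasts. Leaving out 1 library gave 3 to 33, 6 to 21, 27 to 90, 4 to 32, 15 to 72, 1 to 34, 0 to 5, 2 to 172, 91 to 424, 1 to 39 and 1 to 10 calls, in the order above; the 0 came without NDLN Treg 2 (1029 unadjusted) or 3 (899 unadjusted).

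The log2 ratio of summed levels over the 8 genes was -0.10, 1.75, 2.42, -1.60, -0.73, 0.64, -1.37, 0.26 and 1.79 for the 9 pairs of groups. Over H2-Aa, H2-Ab1 and H2-Eb1 alone, a sum chosen after seeing the data, it was -3.28 for heart Tregs over heart Tconvs, 2.55 in spleen, 7.04 in NDLN, -4.68 for heart over spleen Tregs, -3.47 for heart over NDLN Tregs, -3.63 for MLN over NDLN Tregs and 6.85 for heart over NDLN Tconvs. In the low set heart over MLN Tregs gave -0.72. Leaving out 1 library gave -1.10 to 0.67, 1.19 to 1.97, 2.10 to 2.96, -2.59 to -1.03, -1.73 to -0.31, -0.35 to 1.06, -1.61 to -1.05, -0.51 to 0.74 and 1.03 to 2.33, so the sign in heart Tregs against Tconvs, heart against MLN Tregs and heart against spleen Tconvs rests on single libraries. The cause of these shifts was not tested. The heart Treg values of H2-Aa and H2-Eb1 rest on few counts. Ciita and H2-DMb1 are limited by their spread, with 0 counts in some libraries and up to 308 and 368 in others.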
